A study of Mus musculus with 8 samples.

Results

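The genes described here encode the proteins that copy the genome in S phase and supply its building blocks, in mouse dendritic cells before and after lipopolysaccharide (LPS). They number 42 and were chosen by name, with earlier results of these data known. Of these, 14 recognise and license origins (Orc1 to Orc6, Cdc6, Cdt1 and Mcm2 to Mcm7) and 8 fire them (Mcm10, Cdc45, Gins1 to Gins4, Ccne1 and Ccne2). A further 16 work at the fork (Pcna, Rfc1 to Rfc5, Rpa1 to Rpa3, Pola1, Pole, Pold1, Prim1, Fen1, Lig1 and Uhrf1) and 4 supply nucleotides (Rrm1, Rrm2, Tyms and Tk1). All 42 had a probe, 49 probes in all, out of 20887 genes with a matched probe. Immature cells were C57BL/6 female bone marrow monocytes, as the labels call them, held for 6 days in IL-4 and GM-CSF (10 ng/ml of the latter), and 4 such samples were taken on day 6. The 4 LPS samples were cells of the same culture scheme that then received 50 ng/ml LPS overnight, and were taken on day 7. Both groups therefore carry GM-CSF and IL-4, and the extra night cannot be told apart from LPS, because no day 7 cells without LPS were included. RNA came from whole cultures, so fewer cells in cycle and less RNA per cell cannot be told apart. The source of the cells is given elsewhere in the labels as bone marrow progenitors, and whether replicates were separate animals or cultures is not stated, so p-values measure the spread between these samples, which may be technical.

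A replication origin is first bound by the origin recognition complex, ORC, which with Cdc6 and Cdt1 loads the ring-shaped MCM helicase in G1; this is licensing. At the start of S phase, cyclin E and Cdk2 together with the Dbf4-dependent kinase turn the loaded ring into an active helicase by adding Cdc45 and the GINS complex, with Mcm10 required for unwinding. Behind it, primase and polymerase alpha begin each strand, the RFC clamp loader places the PCNA ring, polymerases epsilon and delta extend, and Fen1 and Lig1 join the lagging-strand fragments. Ribonucleotide reductase, thymidylate synthase and thymidine kinase provide deoxynucleotides, and many genes of the whole set are classical targets of E2F transcription factors. Growth factors such as GM-CSF keep part of a bone marrow culture dividing, whereas mature dendritic cells are known as non-dividing cells.

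On each array 47.5% to 51.3% of the spots outside the controls were well above background, none was saturated, and the 75th percentile of the signal ran from 449 to 490 in immature samples and from 392 to 418 in LPS samples. Levels below are log2 signals minus that percentile, so a level of 0 is the array's 75th percentile and levels of different genes, read by different probes, are not compared. Changes are LPS minus immature in log2 units ± SE, mean levels are given ± SD, n is 4 per group, and adjusted p is limma's over all tested genes. The 9 dendritic cell markers, Itgax, Zbtb46 and H2-Ab1 among them, were all well above background on every array. So were all 8 tested macrophage, 7 monocyte and 8 progenitor markers, and 10 of 11 markers of neutrophils and their precursors. Detection alone therefore does not tell these cells apart. The immature arrays all lay in 1 row of the slide and the LPS arrays in the other, so row and treatment cannot be told apart. Immature array 3 stood apart from the other immature arrays, as its values below show.

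Transcripts of the replication machinery were lower after LPS in most members. Of 40 tested members, 31 fell (limma, adjusted p under 0.05), 1 rose (Orc5) and 8 were not called. Of all 12707 tested genes, 24.6% fell, 31.4% rose and 56% were called either way. The median log2 change was −0.91 over the tested members and 0.06 over all tested genes. Falls of at least 2-fold were seen in 17 of the 40, against 8.74% of all tested genes, and the single rise, that of Orc5, was under 2-fold, a size that 9.16% of all tested genes reached in that direction. In 27 of the 40 every LPS array lay below every immature array, against 22.2% of all, and with Orc5 the groups did not overlap in 28, against 52.3% of all. All 40 were well above background on all 8 arrays, so none entered the test through 1 group alone. Orc1 and Ccne2 were too dim to be tested. The share of falls depended on scaling: scaled to the array median, 34 members and 32.6% of all tested genes fell, and without scaling 34 members and 35% of all fell. Of all called genes 56.1% rose under the 75th percentile, 38.9% under the array median and 35.3% without scaling, while the median change of all tested genes moved from 0.06 to −0.11 and −0.15.

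**Figure D1:**
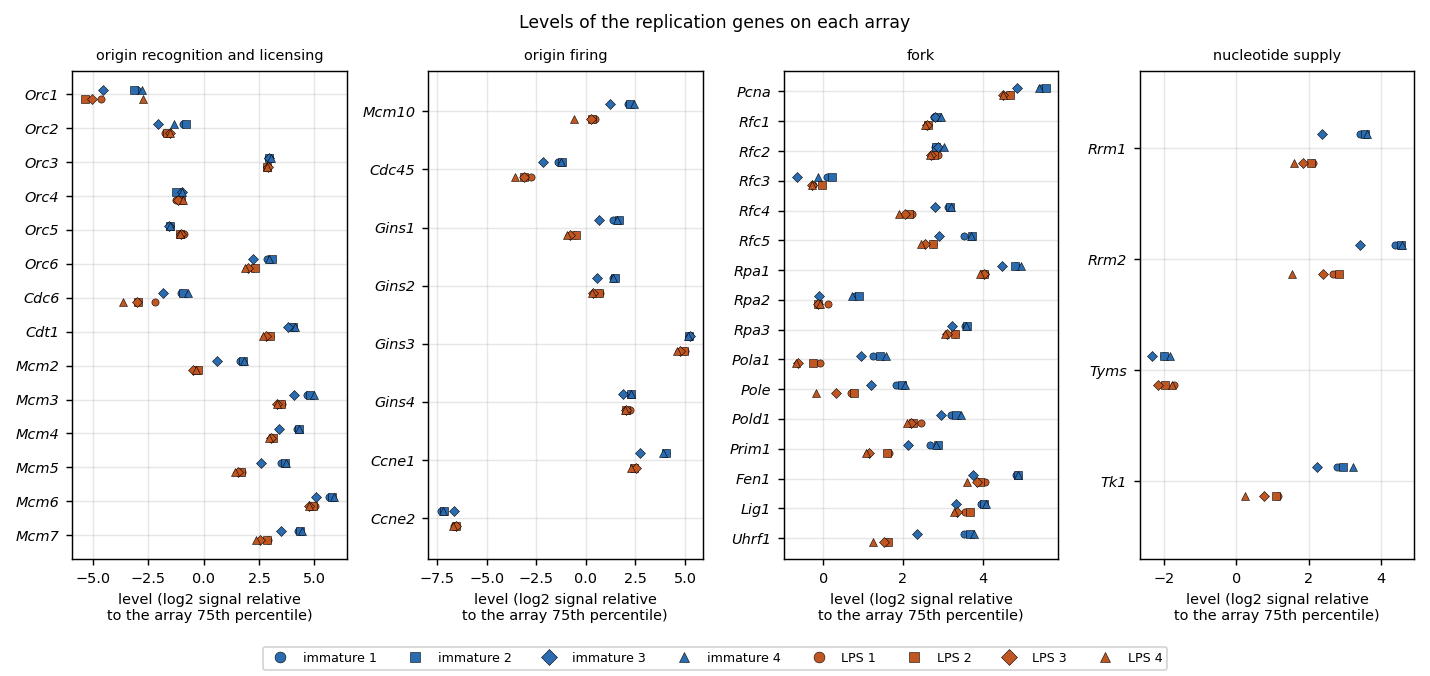
Level of each of the 42 replication genes on each array (x axis, log2 signal relative to the array's 75th percentile), in 4 panels by role, with immature arrays in blue, LPS arrays in orange and the marker shape giving the array number. In Mcm2, Gins1, Pola1 and Tk1 the colours are well apart, in Orc5 the order is turned, and the blue diamond (immature array 3) often lies nearest to the orange points.

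Many of these genes carry E2F sites in textbook accounts, so the letters of their promoters were read from RefSeq (GRCm38.p6), in which 35 of the 42 had an entry, with 43 windows of 300 bases (250 before the start and 50 after it). The motif searched was any of TTTGGCGC, TTTGCCGC, TTTCGCGC and TTTCCCGC on either strand, overlapping matches included. It was found for 14 of the 35 members (40%), and for 704 of 27025 genes in the promoter table (2.60%), or 455 of 10190 tested genes with an entry (4.47%). Licensing genes held it most often (8 of 13), then fork genes (5 of 14), then firing genes (1 of 4), and nucleotide supply genes not at all (0 of 4). 4 stretches are shown because they hold such a match and belong to genes that did and did not change: Mcm5 and Mcm6, which fell, and Orc3 and Rfc3, which were not called. They are the bases just upstream of the outermost RefSeq start of each gene, written 5′ to 3′ on the gene's own strand, at chr8:75109259-75109467 (plus strand) for Mcm5, chr1:128359706-128359955 (minus strand) for Mcm6, chr4:34614964-34615192 (minus strand) for Orc3 and chr5:151651209-151651458 (minus strand) for Rfc3. Capitals mark the matches.
Mcm5: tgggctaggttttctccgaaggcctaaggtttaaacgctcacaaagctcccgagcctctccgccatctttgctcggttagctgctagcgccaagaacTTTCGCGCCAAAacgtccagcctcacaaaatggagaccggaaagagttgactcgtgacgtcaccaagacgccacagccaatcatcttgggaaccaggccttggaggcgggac
Mcm6: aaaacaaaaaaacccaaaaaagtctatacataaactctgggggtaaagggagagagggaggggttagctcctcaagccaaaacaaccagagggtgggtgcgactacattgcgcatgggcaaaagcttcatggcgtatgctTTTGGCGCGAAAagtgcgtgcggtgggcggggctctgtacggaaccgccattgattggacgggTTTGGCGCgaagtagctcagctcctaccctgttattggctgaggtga
Orc3: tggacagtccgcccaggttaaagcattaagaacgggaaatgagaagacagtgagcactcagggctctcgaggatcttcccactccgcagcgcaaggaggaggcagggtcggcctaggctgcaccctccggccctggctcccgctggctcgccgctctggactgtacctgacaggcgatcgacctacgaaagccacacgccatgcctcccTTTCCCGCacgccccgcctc
Rfc3: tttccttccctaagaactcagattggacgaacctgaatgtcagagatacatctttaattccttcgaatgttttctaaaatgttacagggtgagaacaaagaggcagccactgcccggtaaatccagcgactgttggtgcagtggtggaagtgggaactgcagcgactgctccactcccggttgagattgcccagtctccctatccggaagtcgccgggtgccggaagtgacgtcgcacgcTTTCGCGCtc

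In Mcm5 the run TTTCGCGCCAAA holds 2 overlapping matches, 1 on each strand, and Mcm6 holds a similar run, TTTGGCGCGAAA, and a further TTTGGCGC nearer the start. In Orc3 the match was TTTCCCGC and in Rfc3 TTTCGCGC close to the start. A second Rfc3 match, GCGGGAAA, begins at the start itself and so lies just past the stretch shown. Matches occurred in members that fell and in others: a match was present in 10 of 27 members called lower (37.0%) and in 4 of the 8 others with a promoter (50.0%; Orc1, Orc3, Rfc3 and Lig1). Across all tested genes with a promoter entry, 33.6% of the 455 with a match fell and 24.0% of the 9735 without one. The median change of those groups was −0.07 and 0.06. The letters CCAAT, the core of another promoter element, were in 23 of 35 members (65.7%), 41.1% of all genes and 42.9% of tested genes, and TTTGAA, the core of the element of G2 and M phase genes, in 4 of 35 (11.4%), 20.2% and 14.8%. These are matches of letters, not measured sites.

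Licensing genes fell in 9 of 13 tested cases, with 1 rise and 3 not called, and a median log2 change of −0.99. Of the 5 tested ORC subunits, which mark origins, 1 fell, 1 rose and 3 were not called. Orc6 fell from a mean level of 2.79 ± 0.38 to 2.10 ± 0.20 (SD, n = 4 each; change −0.69 ± 0.19, adjusted p = 0.0143). Its groups overlapped, with immature array 3 at 2.24 and the highest LPS array at 2.32, and the call was lost when replicates 1 and 2 of each group were averaged (adjusted p = 0.0507). Orc5, an ATP-binding subunit of the complex, had levels of −1.50, −1.51, −1.57 and −1.50 on immature arrays 1 to 4 and −0.89, −1.05, −1.04 and −1.06 on LPS arrays 1 to 4. Every LPS array was above every immature array, and the rise was 0.51 ± 0.07 on the log2 scale (SE, n = 4 per group; limma, adjusted p = 0.000367), or 0.34 and 0.30 with array-median scaling and without scaling. Orc2, a core subunit, had levels of −0.93, −0.79, −2.07 and −1.35 on immature arrays 1 to 4 and −1.73, −1.64, −1.51 and −1.51 on LPS arrays 1 to 4. Immature array 3 was the lowest of all 8 for this gene, the groups overlapped, and the change of −0.31 ± 0.26, adjusted p = 0.328, was not called, whereas without that array it was −0.57 (adjusted p = 0.00992) and was called.

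Orc3, which pairs with Orc2 in the complex, had levels of 2.91, 2.94, 2.93 and 3.04 on immature arrays 1 to 4 and 2.87, 2.87, 2.89 and 2.87 on LPS arrays 1 to 4. The groups did not overlap but lay very close (−0.08 ± 0.06, adjusted p = 0.302), and the gene was called lower with array-median scaling (−0.25), without scaling (−0.29) and over the mean of its probes (−0.27). Its dimmer probe, above background on 3 of 4 LPS arrays, gave −0.45 (adjusted p = 0.00629). Orc4, another ATPase-family subunit, had levels of −1.08, −1.25, −0.98 and −0.99 on immature arrays 1 to 4 and −1.26, −1.02, −1.15 and −0.92 on LPS arrays 1 to 4. Its groups overlapped fully (change −0.01 ± 0.10, adjusted p = 0.92), its dimmer probe gave −0.06, and the sign of the change turned in 5 of 21 alternative settings. Orc1, the subunit that in many cells varies through the cycle, had levels of −3.01, −3.16, −4.56 and −2.78 on immature arrays 1 to 4 and −4.61, −5.38, −5.04 and −2.74 on LPS arrays 1 to 4. Only 3 immature arrays and 1 LPS array were well above background there, so no change is given.

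Of the 2 loading factors, Cdc6, the ATPase that joins ORC to load the helicase, had levels of −1.01, −0.91, −1.84 and −0.71 on immature arrays 1 to 4 and −2.18, −2.96, −3.02 and −3.66 on LPS arrays 1 to 4. No LPS array reached the lowest immature one, and the fall was 3.58-fold (−1.84 ± 0.34, adjusted p = 0.00199). A dimmer Cdc6 probe was not well above background on any LPS array and gave a fall of at least 4.57-fold, while normexp background correction reduced the change of the brighter probe to −1.02. Cdt1, which brings the ring to ORC and is held in check by geminin, fell from 4.0 ± 0.14 to 2.87 ± 0.16 (SD, n = 4; change −1.13 ± 0.11, adjusted p = 6.51e-05). Its groups did not overlap.

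All 6 subunits of the MCM ring fell, though by unequal amounts. Mcm2 had levels of 1.66, 1.76, 0.59 and 1.83 on immature arrays 1 to 4 and −0.29, −0.25, −0.49 and −0.36 on LPS arrays 1 to 4. The lowest immature array still exceeded the highest LPS array, and the fall was 3.5-fold (−1.81 ± 0.26, adjusted p = 0.000538). Mcm5, which sits beside Mcm2 at the gate of the ring, had levels of 3.47, 3.69, 2.59 and 3.72 on immature arrays 1 to 4 and 1.75, 1.70, 1.55 and 1.40 on LPS arrays 1 to 4. It fell by a like amount, 3.41-fold (−1.77 ± 0.24, adjusted p = 0.000427), again with no overlap. Mcm7 had levels of 4.24, 4.33, 3.48 and 4.42 on immature arrays 1 to 4 and 2.93, 2.85, 2.54 and 2.35 on LPS arrays 1 to 4, a fall of 2.73-fold (−1.45 ± 0.22, adjusted p = 0.000839). The remaining subunits changed by −1.21 ± 0.18 (Mcm3), −0.99 ± 0.19 (Mcm4) and −0.74 ± 0.18 (Mcm6), with adjusted p = 0.000668, 0.00264 and 0.0079. Their mean levels moved from 4.63 ± 0.38 to 3.41 ± 0.13 in Mcm3, from 4.05 ± 0.42 to 3.06 ± 0.08 in Mcm4 and from 5.6 ± 0.38 to 4.86 ± 0.13 in Mcm6.

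**Figure D2:**
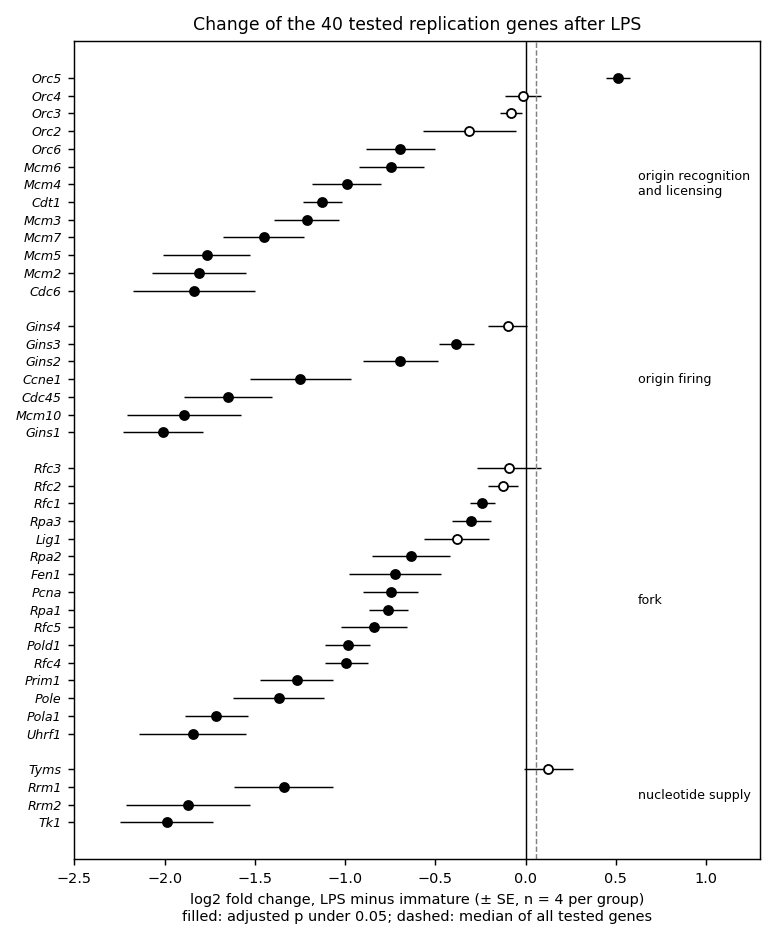
Log2 fold change of the 40 tested replication genes (x axis, LPS minus immature; points with SE bars, n = 4 per group), ordered within the 4 roles, filled where limma's adjusted p was under 0.05. 31 filled points lie left of 0 and 1 (Orc5) right of it, and the dashed line marks the median of all tested genes, 0.06.

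Firing genes gave 6 falls among 7 tested members and the median change was −1.25. Gins1, a subunit of the GINS complex of the active helicase, had levels of 1.37, 1.65, 0.65 and 1.55 on immature arrays 1 to 4 and −0.53, −0.51, −0.80 and −0.97 on LPS arrays 1 to 4. With each gene read from its brightest probe, this was the largest change of any member, a 4.03-fold fall (−2.01 ± 0.22, adjusted p = 0.000137), and the groups were more than 1 log2 unit apart. The dimmer probes of Cdc6 and Uhrf1 had larger measured changes. The other subunits of the same complex moved less: Gins2 from 1.20 ± 0.41 to 0.51 ± 0.21 (−0.69 ± 0.21, adjusted p = 0.0201), Gins3 from 5.21 ± 0.04 to 4.83 ± 0.18 (−0.38 ± 0.10, adjusted p = 0.00974). Gins4 had levels of 2.23, 2.27, 1.87 and 2.29 on immature arrays 1 to 4 and 2.21, 2.05, 2.02 and 1.99 on LPS arrays 1 to 4. Its groups overlapped and it was not called (−0.10 ± 0.11, adjusted p = 0.462). The call of Gins2 was lost without any 1 of LPS arrays 3 and 4 and immature arrays 1, 2 and 4 (adjusted p = 0.0529 to 0.0551).

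Mcm10, which is needed for the assembled helicase to unwind DNA, had levels of 2.12, 2.25, 1.21 and 2.44 on immature arrays 1 to 4 and 0.47, 0.33, 0.25 and −0.60 on LPS arrays 1 to 4. LPS array 4 was the lowest of the LPS arrays, all LPS arrays were below all immature arrays, and the fall was 3.72-fold (−1.89 ± 0.32, adjusted p = 0.00123). Cdc45, the helicase's other activating subunit, had levels of −1.40, −1.18, −2.16 and −1.24 on immature arrays 1 to 4 and −2.77, −3.10, −3.13 and −3.56 on LPS arrays 1 to 4. It fell 3.13-fold without overlap (−1.65 ± 0.24, adjusted p = 0.000645), and by 0.80 on the log2 scale with normexp correction. Ccne1, the cyclin E1 that drives Cdk2 at the G1 to S boundary, had levels of 4.05, 4.02, 2.74 and 3.89 on immature arrays 1 to 4 and 2.46, 2.44, 2.55 and 2.26 on LPS arrays 1 to 4. Immature array 3 lay only just above the LPS arrays for Ccne1, and the change was −1.25 ± 0.28, adjusted p = 0.00533, with −1.34 from its second probe. Ccne2, the other cyclin E, had levels of −7.32, −7.16, −6.66 and −7.21 on immature arrays 1 to 4 and −6.65, −6.55, −6.54 and −6.67 on LPS arrays 1 to 4, but it was well above background on none of the 8 arrays and has no change to report.

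Fork genes fell in 13 of 16 cases, all tested, with a median change of −0.75 and 4 falls of at least 2-fold. The largest was that of Uhrf1, which reads hemimethylated DNA behind the fork and recruits the maintenance methyltransferase. It had levels of 3.55, 3.68, 2.36 and 3.79 on immature arrays 1 to 4 and 1.60, 1.63, 1.51 and 1.26 on LPS arrays 1 to 4. The groups did not overlap, the fall was 3.59-fold (−1.85 ± 0.30, adjusted p = 0.00101), and a dimmer probe, not well above background on any LPS array, gave at least 2.44-fold. Pola1, the catalytic subunit of polymerase alpha, had levels of 1.23, 1.41, 0.95 and 1.57 on immature arrays 1 to 4 and −0.09, −0.27, −0.65 and −0.68 on LPS arrays 1 to 4. Its 3.28-fold fall (−1.71 ± 0.18, adjusted p = 9.8e-05) came with immature array 3 below the other immature arrays but well above the LPS arrays.

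Prim1, the catalytic subunit of primase, had levels of 2.68, 2.89, 2.13 and 2.83 on immature arrays 1 to 4 and 1.64, 1.60, 1.14 and 1.08 on LPS arrays 1 to 4, and fell 2.41-fold (−1.27 ± 0.20, adjusted p = 0.000993). Pole, the catalytic subunit of the leading-strand polymerase epsilon, had levels of 1.83, 1.98, 1.21 and 2.05 on immature arrays 1 to 4 and 0.69, 0.76, 0.31 and −0.18 on LPS arrays 1 to 4. It fell 2.58-fold (−1.37 ± 0.25, adjusted p = 0.00201). The second Pole probe was well above background on no array, where its mean moved up by 0.41, and averaging the probes ended the call (−0.48, adjusted p = 0.181). Pold1, the catalytic subunit of the lagging-strand polymerase delta, fell from 3.24 ± 0.22 to 2.25 ± 0.15 (−0.99 ± 0.13, adjusted p = 0.000308). The catalytic subunits of all 3 replicative polymerases thus fell with non-overlapping groups.

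The sliding clamp Pcna had levels of 5.47, 5.6, 4.88 and 5.42 on immature arrays 1 to 4 and 4.66, 4.69, 4.52 and 4.51 on LPS arrays 1 to 4, a fall of 1.68-fold (−0.75 ± 0.15, adjusted p = 0.00337) with no overlap. The clamp loader was mixed. Rfc4 and Rfc5 fell from 3.08 ± 0.19 to 2.09 ± 0.15 (−0.99 ± 0.12, adjusted p = 0.000206) and from 3.47 ± 0.38 to 2.63 ± 0.15 (−0.84 ± 0.18, adjusted p = 0.0047). Rfc1, the large subunit, moved by −0.24 ± 0.07, adjusted p = 0.0164, or by −0.41 and −0.45 with array-median scaling and without scaling, and its call was lost with spike-in scaling (adjusted p = 0.0977). Rfc2 had levels of 2.80, 2.82, 2.87 and 3.04 on immature arrays 1 to 4 and 2.88, 2.78, 2.70 and 2.67 on LPS arrays 1 to 4. The groups overlapped (−0.13 ± 0.08, adjusted p = 0.232), and a call appeared only with array-median scaling (−0.30) and without scaling (−0.33). Rfc3 had levels of 0.08, 0.20, −0.65 and −0.13 on immature arrays 1 to 4 and −0.26, −0.05, −0.28 and −0.29 on LPS arrays 1 to 4, with immature array 3 the lowest of all 8 and no call (−0.09 ± 0.18, adjusted p = 0.678).

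Every subunit of the single-strand binding complex was called lower. Rpa1 moved from 4.77 ± 0.21 to 4.01 ± 0.05 (−0.76 ± 0.11, adjusted p = 0.000502). Rpa2 moved from 0.58 ± 0.47 to −0.06 ± 0.12 (−0.64 ± 0.21, adjusted p = 0.0334) and Rpa3 from 3.5 ± 0.17 to 3.20 ± 0.13 (−0.30 ± 0.11, adjusted p = 0.0436). Of these, the groups were apart in Rpa1 and overlapped in Rpa2 and Rpa3. Fen1, the nuclease that trims lagging-strand flaps, had levels of 4.83, 4.88, 3.77 and 4.90 on immature arrays 1 to 4 and 4.07, 3.93, 3.87 and 3.62 on LPS arrays 1 to 4. Immature array 3 lay within the LPS range for Fen1 (−0.72 ± 0.25, adjusted p = 0.0388). The calls of Fen1 and Rpa3 were lost on leaving out any 1 array but immature array 3, with adjusted p = 0.0542 to 0.0985 for Fen1 and 0.052 to 0.107 for Rpa3. The call of Rpa2 was lost without any 1 of LPS arrays 2 to 4 and immature arrays 1, 2 and 4 (adjusted p = 0.0678 to 0.0857). Lig1, the ligase that seals the fragments, had levels of 3.97, 4.05, 3.33 and 4.09 on immature arrays 1 to 4 and 3.57, 3.69, 3.37 and 3.28 on LPS arrays 1 to 4. It was not called (−0.38 ± 0.18, adjusted p = 0.103), but was without immature array 3 (−0.56, adjusted p = 0.0038), with array-median scaling (−0.55) and without scaling (−0.59).

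Nucleotide supply genes gave 3 falls of at least 2-fold and 1 gene not called. Rrm2, the small subunit of ribonucleotide reductase whose level follows S phase, had levels of 4.39, 4.55, 3.42 and 4.57 on immature arrays 1 to 4 and 2.68, 2.82, 2.40 and 1.54 on LPS arrays 1 to 4. The fall was 3.66-fold (−1.87 ± 0.34, adjusted p = 0.00198) and LPS array 4 was the lowest by a wide margin. Rrm1, the large subunit, had levels of 3.43, 3.56, 2.37 and 3.61 on immature arrays 1 to 4 and 2.12, 2.05, 1.85 and 1.59 on LPS arrays 1 to 4, a fall of 2.53-fold (−1.34 ± 0.27, adjusted p = 0.00347). Tk1, the thymidine kinase of the salvage route, had levels of 2.78, 2.94, 2.23 and 3.23 on immature arrays 1 to 4 and 1.14, 1.08, 0.77 and 0.23 on LPS arrays 1 to 4. It fell 3.97-fold (−1.99 ± 0.26, adjusted p = 0.000325), next after Gins1 among the brightest probes of the members, with the groups more than 1 log2 unit apart. Tyms, which makes thymidylate from deoxyuridylate, had levels of −1.98, −2.0, −2.32 and −1.82 on immature arrays 1 to 4 and −1.73, −1.95, −2.16 and −1.77 on LPS arrays 1 to 4. Its groups overlapped, it was not called (0.13 ± 0.13, adjusted p = 0.452), and the sign of its change turned in 2 of 21 alternative settings. Only 1 probe read Tyms, with low processed signals of 87.7 to 127 over the 8 arrays, though well above background on each.

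Immature array 3 carried less of the replication transcripts than the other immature arrays. It was the lowest immature array for 35 of the 40 tested members (87.5%), against 40.1% of all tested genes, and its median difference from the mean of the other 3 was −0.74 over the members and −0.02 over all tested genes. Among the 31 members that fell, its distance below those arrays was a median 51.2% of the distance of the LPS mean, from −15.2% in Gins3 to 110% in Fen1. Both distances start from the same 3 arrays. The −0.02 over all tested genes is a signed median and can hide larger differences of both signs. The spread between immature arrays (MAD, log2) was 0.42 for 1 and 3, 0.42 for 2 and 3, and 0.28 for 3 and 4. Between immature arrays other than array 3 it was 0.11 to 0.24, and within the LPS group 0.13 to 0.24. Immature array 3 thus stood apart mainly from arrays 1 and 2. Within the LPS group, array 4 was the lowest for 33 of the 40 members (82.5%), against 29.8% of all tested genes. Without immature array 3, 41 members were tested, 33 fell (the same 31 with Orc2 and Lig1), Orc5 rose, and the median change was −1.08. Without LPS array 4, 27 fell, and the count was also 27 without LPS array 3 or without immature array 1, 2 or 4.

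**Figure D3:**
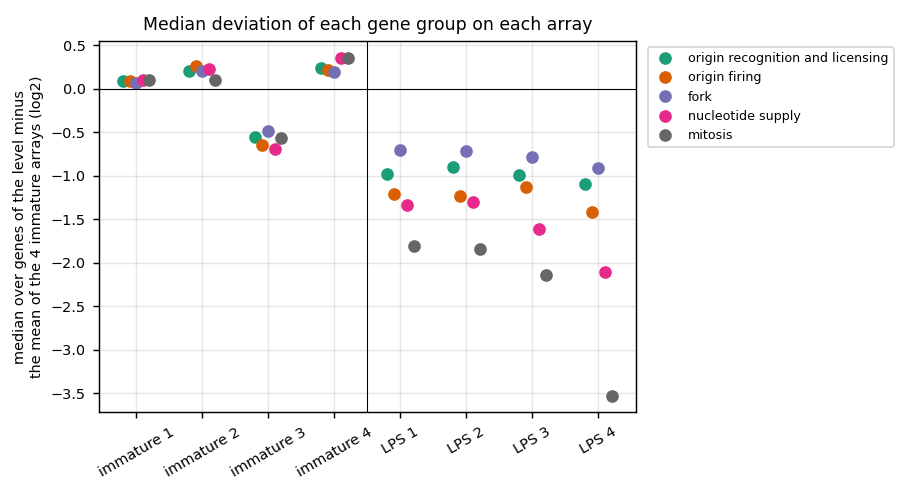
Median over the tested genes of each role of the level minus the mean of the 4 immature arrays (y axis, log2), for each of the 8 arrays (x axis), with mitosis genes in grey. Immature array 3 lies at −0.48 to −0.69 for the 4 replication roles, between the other immature arrays and the LPS arrays, and LPS array 4 is the lowest of the LPS arrays for every role.

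**Figure D4:**
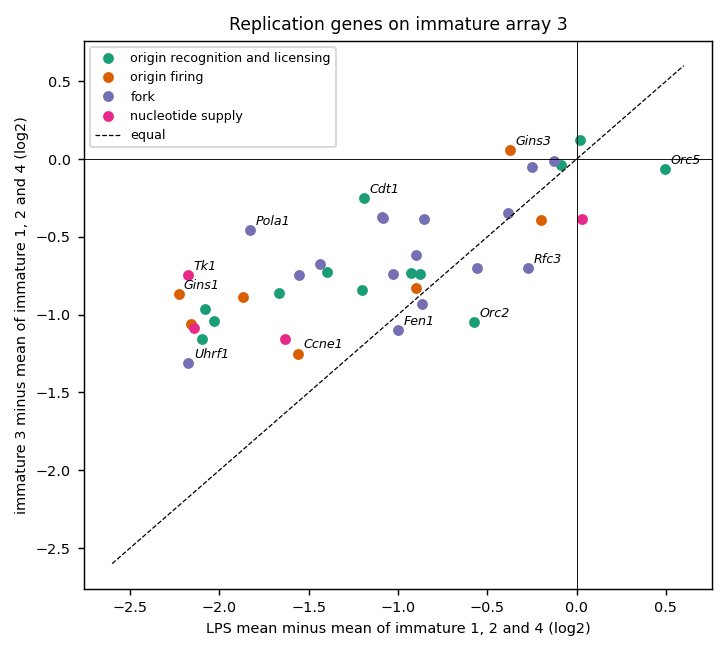
Difference of immature array 3 from the mean of the other 3 immature arrays (y axis, log2) against the difference of the LPS mean from the same 3 arrays (x axis, log2), 1 point per tested replication gene, coloured by role. The axes share those arrays, the dashed line marks equal differences, and most points lie above it on the left: array 3 was displaced the same way as the LPS arrays but less far, with Fen1, Orc2 and Rfc3 among those beyond the line.

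Other genes of replication, outside the 42, were read from lists by role. Of 10 tested genes of licensing control and firing, 7 fell, 1 rose and 2 were not called (median −0.75). The falls were led by Ticrr, which brings Cdc45 to the ring, at −1.77 ± 0.28, adjusted p = 0.000852, by Recql4 at −1.21 ± 0.18, adjusted p = 0.000654, and by Dbf4, the activator of the Cdc7 kinase, at −0.99 ± 0.18, adjusted p = 0.00178. Donson, a fork protein, was called higher (0.28 ± 0.09, adjusted p = 0.036) but lost the call in 12 of 21 alternative settings, among them array-median scaling (0.10) and leaving out LPS array 1, 2 or 4 or immature array 1, 3 or 4.

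Of 29 tested fork and chromatin genes, 17 fell, 3 rose and 9 were not called (median −0.50). Dscc1, of an alternative clamp loader, changed by −2.02 ± 0.33, adjusted p = 0.00108, and by −1.19 with normexp correction. Clspn, the claspin that couples the fork to the checkpoint, changed by −2.0 ± 0.33, adjusted p = 0.00117, and was well above background on only 1 LPS array, with a change of −0.49 under normexp correction. Asf1b, a histone chaperone of dividing cells, changed by −1.87 ± 0.28, adjusted p = 0.000654. Uhrf2, the paralog of Uhrf1, had levels of 2.90, 2.83, 3.38 and 3.24 on immature arrays 1 to 4 and 4.19, 4.16, 4.12 and 4.05 on LPS arrays 1 to 4. It rose without overlap (1.04 ± 0.13, adjusted p = 0.000246), while Uhrf1 fell. Pold4, an accessory subunit of polymerase delta, was higher by 0.53 ± 0.15, adjusted p = 0.0166, but by 0.35 and 0.32 with no call under array-median scaling and without scaling, and with no call when replicates 1 and 2 were averaged (adjusted p = 0.0937). Pola2, the regulatory subunit of polymerase alpha, was higher by 0.41 ± 0.12, adjusted p = 0.0212, with no call under array-median scaling (0.24), without scaling (0.21), or without LPS array 3 (adjusted p = 0.0517) or immature array 1 (adjusted p = 0.0586). The call was also lost with spike-in scaling (adjusted p = 0.0623) and when replicates 1 and 2 were averaged (adjusted p = 0.0836). Dnmt1, the maintenance methyltransferase, was singled out after its values were seen: it was not called (−0.15 ± 0.10, adjusted p = 0.234).

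Of 22 tested genes of nucleotide metabolism, 14 fell, 2 rose and 6 were not called (median −0.82). Shmt1, which feeds single-carbon units to thymidylate synthesis, changed by −1.83 ± 0.31, adjusted p = 0.00127. It was well above background on only 1 LPS array, and normexp correction reduced its change to −0.65. Dctd, which makes deoxyuridylate, was not well above background on any LPS array and fell at least 2.01-fold. Dut, which removes dUTP, fell from 2.08 ± 0.34 to 0.66 ± 0.15 (−1.41 ± 0.17, adjusted p = 0.000219). Against this, Cmpk2, a mitochondrial nucleotide kinase known as an interferon-stimulated gene, had levels of −0.40, −0.53, −1.63 and −1.38 on immature arrays 1 to 4 and 1.96, 2.2, 1.55 and 2.29 on LPS arrays 1 to 4, a rise of 7.9-fold (2.98 ± 0.30, adjusted p = 8.75e-05). Mthfd2, a mitochondrial enzyme of the folate cycle, had levels of 1.56, 1.53, 1.75 and 1.68 on immature arrays 1 to 4 and 2.72, 2.61, 2.32 and 2.53 on LPS arrays 1 to 4, and rose without overlap (0.91 ± 0.10, adjusted p = 0.000145). Samhd1, which degrades deoxynucleotides, was also singled out after its values were seen, and was not called (0.06 ± 0.07, adjusted p = 0.534).

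Among 12 tested E2F and pocket protein genes, 6 fell and 6 were not called (median −0.27). E2f2, an activating member, had levels of 3.67, 3.76, 3.60 and 3.90 on immature arrays 1 to 4 and 1.53, 1.63, 1.45 and 0.38 on LPS arrays 1 to 4. Its fall (−2.48 ± 0.26, adjusted p = 0.000105) was larger than that of any of the 42 members by its brightest probe, and immature array 3, though the lowest, was close to the other immature arrays. The atypical repressors E2f7 and E2f8 fell, with changes of −2.36 ± 0.31, adjusted p = 0.000343, and −2.14 ± 0.23, adjusted p = 0.00011, with E2f7 at −1.23 over the mean of its probes. E2f1, the best-known activator and named after its values were seen, had levels of 2.17, 2.37, 2.17 and 2.51 on immature arrays 1 to 4 and 2.25, 2.35, 2.15 and 2.48 on LPS arrays 1 to 4, with groups that overlapped fully and no call (SE 0.11, adjusted p = 0.998). For comparison with the later part of the cycle, all 9 tested mitosis genes fell, with a median of −2.33, led by Cdc20 (−2.69 ± 0.34, adjusted p = 0.0003) and Ccna2 (−2.69 ± 0.41, adjusted p = 0.000724).

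**Figure D5:**
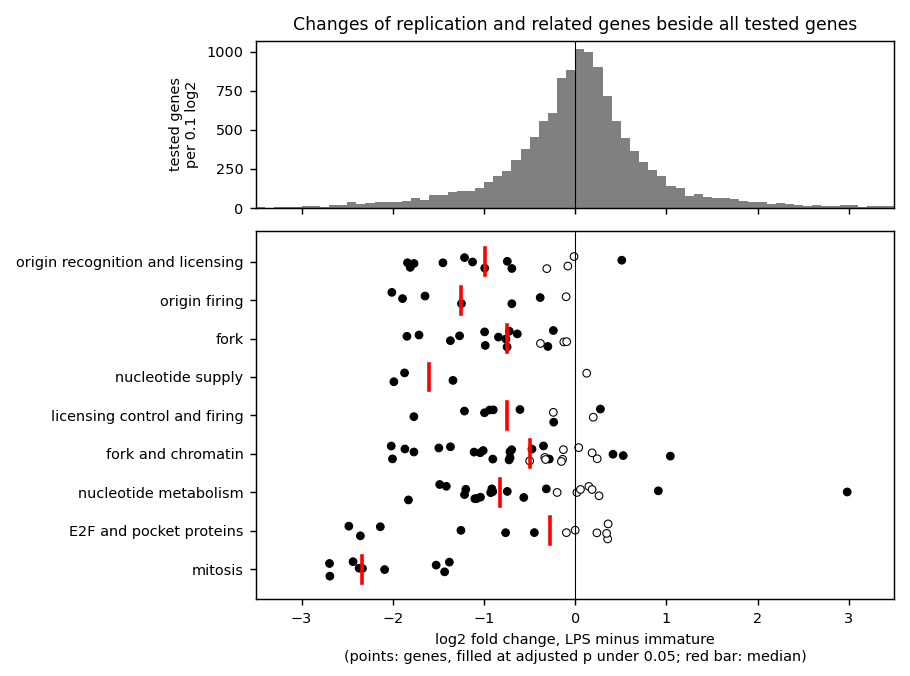
Log2 fold change (x axis, LPS minus immature) of the tested genes of the 4 replication roles, of 4 lists of related genes and of mitosis genes, 1 point per gene, filled where limma's adjusted p was under 0.05, with a red bar at each median; above, the distribution over all 12707 tested genes, of which 164 lie beyond the axis. The medians run from −0.27 (E2F and pocket proteins) to −1.61 (nucleotide supply) and −2.33 (mitosis), and Cmpk2 stands alone near 3.

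Markers of other cells that such a culture can hold were also read, and their part in the results was not tested. Beside the counts here and in the next paragraph, 24.6% of all tested genes fell, 31.4% rose and 56% were called either way. Summed levels below add each list's genes as multiples of the array's 75th percentile, and Flt3 stands in both the dendritic cell and the progenitor list, Gata2 in both the progenitor and the mast cell list. Granulocyte precursor and neutrophil markers fell in 11 of 11 tested genes and their sum ran from 876 to 1017 before LPS and from 320 to 536 after it, with Mpo at −4.66 ± 0.42, adjusted p = 5.11e-05 and S100a9 at −0.80 ± 0.16, adjusted p = 0.00264. On immature array 3 that sum was 957, within the range of the other immature arrays. The sum over the replication genes was 319 there and 467 to 509 on the others (217 to 266 on the LPS arrays). The granulocyte sum weighs its brightest genes most, and S100a9 had the highest mean level of that list, whose median change was −2.56. Precursor genes were not summed apart. Progenitor markers gave 3 falls, 3 rises and 2 not called, with sums of 15.8 on immature array 3, 23.4 to 28.4 on its 3 companions and 17.2 to 19.5 after LPS, and Cd34 fell (−2.15 ± 0.30, adjusted p = 0.000457). Monocyte markers gave 3 falls, 2 rises and 2 not called, with sums of 155 on immature array 3, 95.6 to 111 on the others and 227 to 298 after LPS. Cd14 rose (2.54 ± 0.21, adjusted p = 3.25e-05) and F13a1 fell (−3.78 ± 0.56, adjusted p = 0.000672). Cd14 had the highest mean level of the monocyte list and so weighs most in its sum, whereas the median change was −0.11. No sum was taken without Cd14. Dendritic cell markers gave 4 falls (Cd74, −0.46 ± 0.08), 4 rises (Flt3, 2.65 ± 0.18) and 1 not called, with sums of 1071 to 1138 and 1157 to 1292. Ccr7, the receptor that guides mature dendritic cells to lymph nodes and singled out after its values were seen, rose from 6.75 ± 0.40 to 8.87 ± 0.04, and without it the sums were 955 to 1041 before and 703 to 804 after LPS.

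Macrophage markers gave 3 falls (Mrc1, −4.23 ± 0.18), 2 rises and 3 not called, with Csf1r not called at −0.13 ± 0.08 (called lower with array-median scaling, −0.30, without scaling, −0.34, and over the mean of its probes, −0.28) and sums of 389 to 432 and 588 to 703. Marco, a scavenger receptor singled out after its values were seen, rose from 4.93 ± 0.48 to 8.18 ± 0.28, and without it the sums were 348 to 408 before and 331 to 390 after LPS. Mast cell and basophil markers gave 3 falls, 1 rise (Hdc, 3.15 ± 0.38) and 1 not called, with sums of 7.35 to 12.8 and 21.3 to 61.7. Hdc had the highest mean level of that list, the median change was −1.45, and no sum was taken without Hdc. For B cell markers the sums were 0.912 to 2.98 before and 0.694 to 1.77 after LPS, and for T and NK cell markers 1.07 to 1.44 and 1.55 to 1.83. Alas2 and Klf1, Pax5 and Igll1, Ncr1 and Gzma, and the mast cell protease Mcpt4 were well above background on no array. Of 3 tested erythroid genes Car1 rose (0.89 ± 0.18), Hba-a1 fell by at least 2.52-fold and 1 was not called. The 3 tested B cell genes were not called (Cd79b, −0.27 ± 0.40). Of 4 tested T and NK cell genes 2 fell (Klrb1c, at least 1.35-fold, with the call lost under normexp correction and over the mean of its probes), 1 rose and Cd3e was not called (adjusted p = 0.99).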

How the data were processed

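Total RNA of 4 immature and 4 LPS-treated samples was labelled with Cy3 and hybridised to one-colour Agilent arrays, 1 sample per array. The authors' deposited values are scanner intensities: per the file headers and the submitters' processing notes, Agilent Feature Extraction 11.0.1.1 subtracted background and detrended each spot to give the processed signal, with no scaling between arrays. The deposited files also hold flags (0 or 1) for spots well above background, saturated or outlying, used as other values per the file headers.

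Between 122 and 206 outlier spots per array were dropped, the log2 signals of a probe's spots were averaged, and the array's 75th percentile was subtracted. Probes were named only through their transcript accession and RefSeq, and 27509 of 55681 probes outside the controls matched 1 gene. A gene was represented by its probe with the highest mean and was tested where the 4 arrays of either group all had it well above background (12707 genes). Groups were compared with limma 3.58.1 (lmFit and eBayes) in R 4.3.3, two-sided, with Benjamini-Hochberg adjustment over all tested genes and calls at an adjusted p under 0.05. Changes are LPS minus immature on the log2 scale with SE, and "at least" folds raise dim values to the lowest level well above background on their array. The script was tested on simulated data. The number of arrays limits the precision. Figures used Python 3.11.15 and matplotlib 3.10.9.

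The 42 members, the other lists and the markers were chosen with earlier results of these data known. By rule, levels on all 8 arrays are given for the 4 largest changes of each role, for members not called, not tested or moving against their role, and for members whose probes disagree in sign. From each related list the 3 largest called changes in each direction are named, from the mitosis list 2, and from each marker list the highest and the most changed gene. Levels of a few further genes are given where a result turns on them. Alternatives covered background correction, scaling, the filter on dim probes, the probes of a gene, a replicate block and leaving out each array. The raw mean signal assumed for normexp in the plan was not used here, and the raw median signal took its place. Cd68, Ly6c2, Ly6g and Hbb-b1 had no matched probe. A marker gene of the erythroid list, and that list's sum, are not reported here. The labels do not say whether same-numbered replicates were paired. Their deviations from the group means correlated at 0.19, 0.02, 0.05 and −0.10, and those of differently numbered replicates at −0.16 to 0.27. Such correlations cannot decide the question, since samples of 1 culture need not share deviations, so pairing is not known.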

Additional observations from a re-analysis of the deposited data

Results flagged for a closer look

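Among 84 groups of 4 arrays (42 members, both groups), 15 had an array standing apart from the other 3 by Dixon's criterion, which chance passes in about 1 group in 20. Immature array 3 was that array in 12 of the 15, each time as the lowest of its group. Its levels there were −1.57 in Orc5 (the others −1.51 to −1.50), 0.59 in Mcm2 (1.66 to 1.83), 3.42 in Mcm4 (4.20 to 4.29), 0.58 in Gins2 (1.37 to 1.46), 1.87 in Gins4 (2.23 to 2.29) and 2.74 in Ccne1 (3.89 to 4.05). Among fork genes they were 3.24 in Rpa3 (3.56 to 3.60), 3.77 in Fen1 (4.83 to 4.90), 3.33 in Lig1 (3.97 to 4.09) and 2.36 in Uhrf1 (3.55 to 3.79). For ribonucleotide reductase they were 2.37 in Rrm1 (3.43 to 3.61) and 3.42 in Rrm2 (4.39 to 4.57). In the LPS group, array 3 was the highest for Orc3 (2.89, the others 2.87), array 1 the highest for Orc5 (−0.89, the others −1.06 to −1.04) and array 2 the highest for Rfc3 (−0.045, the others −0.29 to −0.26).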

How the results depend on the processing

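Over 21 alternatives, no called change of a named gene turned its sign, and the count of members that fell ran from 25 to 34 of 40 tested, except that 42 were tested with no filter on dim probes and 41 without immature array 3. It was 31 with normexp correction, quantile normalization, scaling to detected probes, the filter on all 8 arrays, the mean of a gene's probes and single probes, 34 with array-median scaling and without scaling, 27 with spike-in scaling, 30 with no filter, and 25 when replicates 1 and 2 of each group were averaged, which leaves 3 samples a group. With that averaging the calls of Fen1, Gins2, Orc6, Rfc1, Rpa2 and Rpa3 were lost. Arrays 1 and 2 were the closest pair of their group by the spread given above (0.11 in immature, 0.13 in LPS samples). Leaving out 1 array gave 27 to 33. With the replicate number as a block 30 fell (Rfc1 was lost, adjusted p = 0.0548), 1 rose, and 6613 of all tested genes were called. Without the filter 2 members were called higher, the second being the dim Ccne2, and 10769 of all genes were called; with unmatched probes included, an alternative chosen after the data were seen, 10929 were called and 30 members fell. Leaving out 1 array gave 6190 to 7904 called genes. Not run apart was naming by accession only, since the main setting already does that. Dim signals limit Orc1, Ccne2 and the second probes of Cdc6, Pole and Uhrf1.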

Other observations

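The difference between the levels of 2 genes on the same array does not depend on the percentile subtracted from that array. Its value on 1 array carries both probes' brightness and has no meaning alone. The pairs below were picked after their changes were seen, so no test is given. Whether 2 probes respond alike to the same change of RNA was not tested, so the unequal changes below are those of probe signals. Mcm2 minus Mcm6, both in the MCM ring, was −4.14 ± 0.21 before and −5.21 ± 0.09 after LPS (SD, n = 4 each). The Mcm2 signal thus fell 1.06 log2 units more. Gins1 minus Gins4 went from −0.86 ± 0.26 to −2.77 ± 0.17, and Rfc4 minus Rfc2 from 0.20 ± 0.20 to −0.67 ± 0.07. In ribonucleotide reductase the signal of the small subunit fell more than that of the large one. Rrm2 minus Rrm1 was 0.96, 0.99, 1.04 and 0.96 on the immature arrays and 0.56, 0.77, 0.56 and −0.05 on the LPS arrays. Immature array 3 was no different from its group in that ratio, although both subunits were low there. Cdt1 minus Gmnn, the loading factor and its inhibitor, moved little, from 2.90 ± 0.16 to 2.67 ± 0.04. Uhrf1 minus Uhrf2 was 0.65, 0.85, −1.02 and 0.55 on the immature arrays and −2.59, −2.53, −2.61 and −2.80 on the LPS arrays. The groups did not overlap in these 6 pairs, but pairs picked by their changes tend to be apart, so the count is no result. No share over all pairs was taken, and among single tested genes the groups did not overlap in 52.3%. For Cdt1 minus Gmnn they nearly touched, at 2.75 on immature array 4 and 2.73 on LPS array 4.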
